A study of Mus musculus with 9 samples.

Results

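The genes described are those that carry fatty acids into mitochondria as carnitine esters, together with the genes that import carnitine into the cell and make it. They were chosen by name, as 10 gene symbols looked up in the deposited table of 22831 mouse genes, and 9 of them have a row there. Tmlhe, the enzyme of the first step of carnitine synthesis, had no row under its symbol and was not analysed here. Of the 9 genes, 8 had enough counts for a test, and Slc22a5 did not. The libraries came from wild-type C2C12 cells, a mouse myoblast line that fuses into multinucleated myotubes in low serum, and the cells had been differentiated before treatment. One group received 200 µM palmitic acid together with 1000 µM carnitine, a second 200 µM palmitic acid alone, and the control received neither. Each group held 3 libraries, numbered in the sample titles. The labels state no separate cultures, so p-values measure the spread between these libraries, which may be technical. The unit of the treatment time is garbled in the labels and is left out.

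Long-chain fatty acids cannot cross the inner mitochondrial membrane as acyl-CoA. Carnitine palmitoyltransferase 1 on the outer membrane moves the acyl group to carnitine, the carrier Slc25a20 exchanges the acylcarnitine for free carnitine, and Cpt2 inside turns it back into acyl-CoA for beta-oxidation. The Cpt1 step is the controlled one: malonyl-CoA inhibits it, and fatty acids acting through PPAR nuclear receptors switch on Cpt1a, the liver-type form that many other cells also use. Muscle depends on imported carnitine, taken up mainly by Slc22a5.

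Total counts, in M (mega), ran from 2.45 to 3.09 M with palmitic acid + carnitine, from 3.33 to 5.14 M with palmitic acid and from 2.31 to 3.31 M in control. Myotube markers, all 20 of them detected, summed to 13785 to 14994 CPM (counts scaled to library size, with TMM factors) with palmitic acid + carnitine, 17682 to 17932 CPM with palmitic acid and 12794 to 16491 CPM in control. Their sum was thus higher in each palmitic acid library than in any other library. Acta1 and Des had the largest means, 4748 and 4174 CPM with palmitic acid and 3010 and 2964 CPM in control. Single markers did not all follow: for palmitic acid over control 12 had log2 fold changes above 0 and 8 below 0 (median 0.23). For palmitic acid + carnitine over palmitic acid 5 were above 0 and 15 below 0 (median -0.46). The part of the sum in the results was not tested. Much of the count in these files lay on genes annotated opposite protein-coding genes, and libraries differed in this. The sense-to-opposite ratio divides the counts of coding genes that have no gene on the other strand by the counts of noncoding genes opposite a coding gene. It was 0.831, 0.653 and 0.701 with palmitic acid + carnitine, 3.48, 1.21 and 1.22 with palmitic acid, and 0.685, 0.633 and 1.18 in control. Palmitic acid replicate 1 and control replicate 3 therefore stood apart within their groups, and the ratio was higher with palmitic acid than in either other group in each library. Over coding genes without an opposite gene the median log2 fold change was 0.27 for palmitic acid over control and -0.34 for palmitic acid + carnitine over palmitic acid. The values of single genes below are to be read against these medians.

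The genes lie on 8 chromosomes, and positions are those of the table (GRCm39). Cpt1a spans chromosome 19, 3372334 to 3435733, on the plus strand. Cpt1c spans chromosome 7, 44608796 to 44624275, on the minus strand. Cpt2 spans chromosome 4, 107761178 to 107780807 (minus), Slc25a20 chromosome 9, 108539287 to 108561840 (plus), Crat chromosome 2, 30290483 to 30305825 (minus) and Crot chromosome 5, 9016033 to 9047324 (minus). Aldh9a1 spans chromosome 1, 167177560 to 167196101, on the plus strand. Both carnitine transporters sit on the minus strand of chromosome 11, Slc22a5 at 53755368 to 53782486 and Slc22a4 at 53873949 to 53918916. Their relative Slc22a21 lies between them on the same strand.

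The promoters of the 4 shuttle genes are shown because fatty acids are ligands of PPAR receptors, whose DNA site is built from the letters AGGTCA. Each is the 250 bases before the RefSeq start of the gene, read 5′ to 3′ on the gene's strand (RefSeq, build GRCm38.p6), and capitals mark AGGTCA or its reverse complement.
Cpt1a, chr19:3323051-3323300, plus strand: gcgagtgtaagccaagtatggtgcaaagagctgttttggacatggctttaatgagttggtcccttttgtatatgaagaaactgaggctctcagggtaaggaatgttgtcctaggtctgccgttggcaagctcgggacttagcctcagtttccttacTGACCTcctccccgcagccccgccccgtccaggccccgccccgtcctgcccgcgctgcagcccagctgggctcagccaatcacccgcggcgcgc
Cpt1c, chr7:44974852-44975101, minus strand: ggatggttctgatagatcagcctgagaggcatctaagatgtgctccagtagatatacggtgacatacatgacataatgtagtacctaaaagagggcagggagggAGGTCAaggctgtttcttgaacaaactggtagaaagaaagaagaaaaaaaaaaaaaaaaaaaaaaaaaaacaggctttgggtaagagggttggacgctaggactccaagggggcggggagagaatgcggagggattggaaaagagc
Cpt2, chr4:107923590-107923839, minus strand: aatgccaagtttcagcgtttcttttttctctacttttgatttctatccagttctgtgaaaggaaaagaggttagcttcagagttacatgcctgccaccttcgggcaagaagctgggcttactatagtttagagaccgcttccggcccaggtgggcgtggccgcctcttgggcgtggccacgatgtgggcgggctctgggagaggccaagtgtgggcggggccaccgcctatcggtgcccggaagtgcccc
Slc25a20, chr9:108661886-108662135, plus strand: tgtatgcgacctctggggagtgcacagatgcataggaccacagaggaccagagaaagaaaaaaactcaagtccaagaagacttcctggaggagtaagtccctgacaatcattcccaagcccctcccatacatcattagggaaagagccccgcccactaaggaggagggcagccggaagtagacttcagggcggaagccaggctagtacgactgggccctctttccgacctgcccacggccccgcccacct

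Promoters were found for 8 of the 10 genes. AGGTCA was present on either strand in 2 of the 8, Cpt1a and Cpt1c, against 14.0% of 32817 mouse promoter windows of the same length. In Cpt1a it lay 94 to 89 bases before the start, on the strand opposite the gene, and in Cpt1c 146 to 141 bases before the start, on the gene's own strand. The direct repeat of AGGTCA spaced by 1 base, the arrangement bound by PPAR with RXR, was in 0 of the 8 windows and in 0.0335% of all windows. The GC box GGGCGG was in 7 of the 8 windows, all but Aldh9a1, against 32.7% of all windows. The letters CCAAT were in 4 of the 8 windows (Cpt1a, Cpt1c, Crot and Aldh9a1), against 33.8% of all. Both strands were searched for every motif. None of these matches overlapped another motif, and no match or its lack shows whether a factor bound.

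Per length, Crat had the highest mean level of the 9 genes in each group. It averaged 6.11 ± 1.52 FPKM with palmitic acid + carnitine, 11.7 ± 4.07 FPKM with palmitic acid and 6.95 ± 3.05 FPKM in control (SD, n = 3 each). In control the order of mean levels was Crat, Slc22a4, Cpt2, Cpt1a, Aldh9a1, Slc25a20, Cpt1c, Crot and Slc22a5. Of the neighbours in that order, Slc22a4 and Cpt2 (3.30 to 7.46 against 1.77 to 2.91 FPKM) and Slc25a20 and Cpt1c (1.36 to 1.61 against 0.458 to 1.24 FPKM) had ranges that did not overlap, and the other neighbours overlapped. With palmitic acid Cpt1a stood in the second place, at 6.52 ± 1.82 FPKM, against 2.24 ± 1.00 FPKM in control. Its range there overlapped that of Slc22a4, the next gene (4.60 to 8.21 against 3.53 to 6.37 FPKM). With palmitic acid + carnitine Cpt1a stood in the fourth, at 1.88 ± 1.24 FPKM, and overlapped both its neighbours, Aldh9a1 and Cpt2. FPKM as deposited is scaled to each library's total count, so it also carries the difference between the libraries described above.

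**Figure D1:**
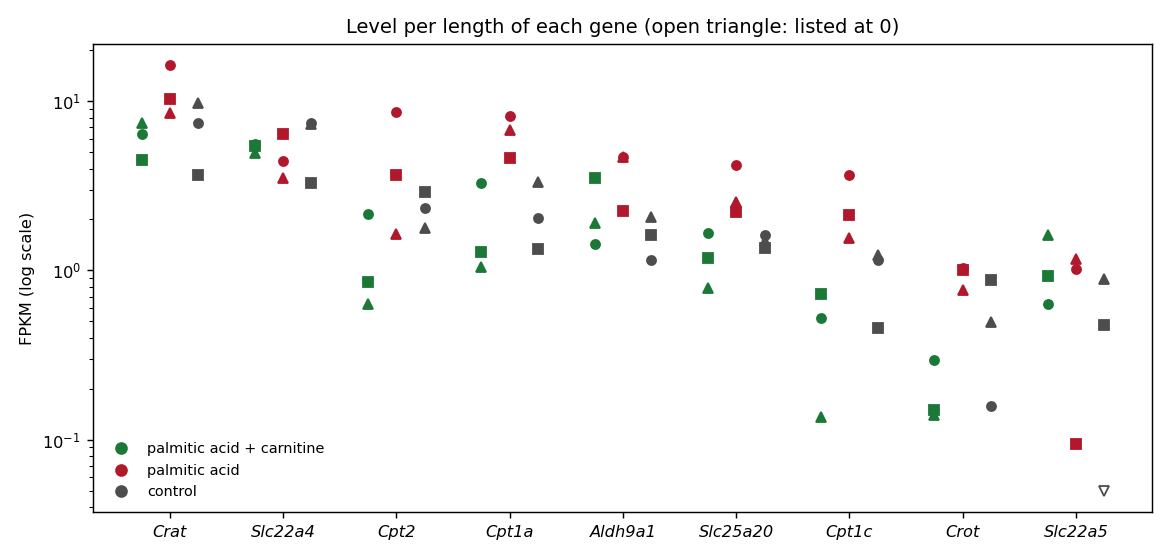
Deposited FPKM (log scale) of the 9 genes in each of the 9 libraries, ordered by the control mean, with palmitic acid + carnitine left, palmitic acid in the middle and control right. Crat and Slc22a4 head the control order, and Slc22a5 was listed at 0 in control replicate 1.

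Most genes of the shuttle had a higher mean CPM with palmitic acid than in either other group, and Slc22a4 had a lower one. Cpt1a averaged 15.7 ± 9.77 CPM with palmitic acid + carnitine, 41.4 ± 7.89 CPM with palmitic acid and 18.0 ± 6.10 CPM in control (SD, n = 3 each). None of the 8 genes passed the test over all genes in any of the 3 comparisons. In RNA from whole cultures, fewer cells of a type and less RNA per cell cannot be told apart.

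**Figure D2:**
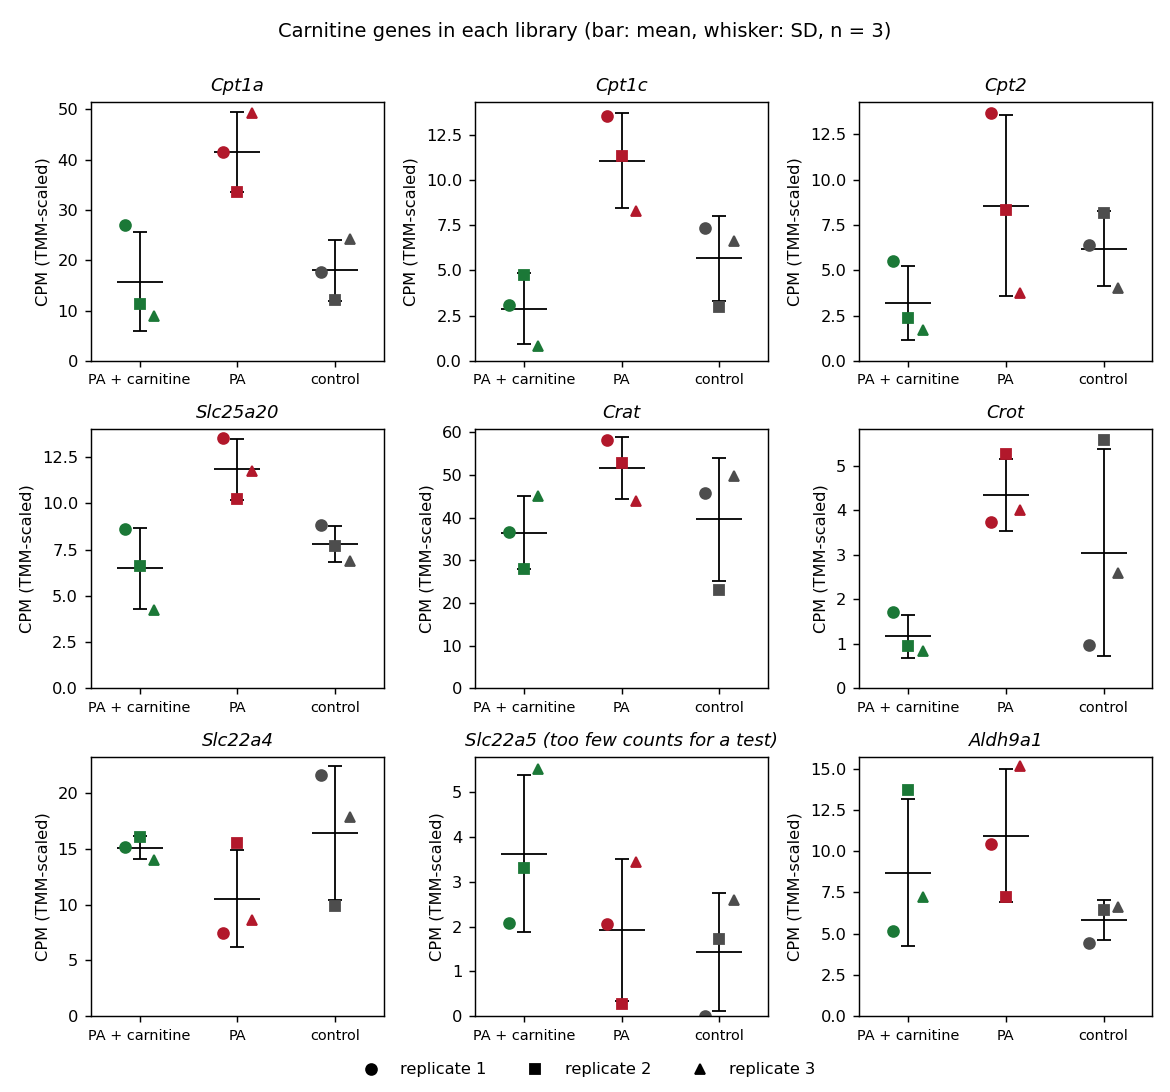
TMM-scaled CPM of the 9 genes by library, with palmitic acid + carnitine left, palmitic acid in the middle and control right (marker: replicate, bar: mean, whisker: SD, n = 3). For Cpt1a, Cpt1c and Slc25a20 all 3 palmitic acid libraries lie above all libraries of both other groups.

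Cpt1a, which makes acylcarnitines at the outer membrane, had 26.9, 11.3 and 8.92 CPM in palmitic acid + carnitine replicates 1, 2 and 3. It had 41.6, 33.5 and 49.3 CPM with palmitic acid and 17.7, 12.0 and 24.2 CPM in control. The palmitic acid libraries were above all others, and those with carnitine overlapped the control. Its log2 fold change was 1.19 ± 0.39 for palmitic acid over control (SE, edgeR, adjusted p = 0.160). For palmitic acid + carnitine over palmitic acid it was -1.38 ± 0.39 (edgeR, adjusted p = 0.125), and for palmitic acid + carnitine over control -0.18 ± 0.40 (adjusted p = 1.00). Without palmitic acid + carnitine replicate 1 these values were -2.01 and -0.81. Cpt1a had no annotated gene on its other strand. Of the 8 genes it had the smallest unadjusted p in both comparisons with palmitic acid, 0.00861 against control and 0.00364 for carnitine over palmitic acid, and ranked 674 and 331 among 12548 genes.

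Cpt1c, the brain-type relative that sits in the endoplasmic reticulum and has little catalytic activity, had 3.11, 4.72 and 0.849 CPM with palmitic acid + carnitine. It had 13.5, 11.4 and 8.31 CPM with palmitic acid and 7.37, 3.00 and 6.63 CPM in control. Again the palmitic acid libraries lay above all others. The log2 fold change was 0.97 ± 0.54 for palmitic acid over control (edgeR, adjusted p = 0.323) and -1.94 ± 0.58 for palmitic acid + carnitine over palmitic acid (adjusted p = 0.125). For palmitic acid + carnitine over control it was -0.97 ± 0.60 (adjusted p = 1.00). These rest on few reads: palmitic acid + carnitine replicate 3 had 2 counts. An annotated antisense RNA, 6530437J22Rik, covers 6.53% of its exon bases and had 2158 counts over the 9 libraries, against 241 for Cpt1c. That RNA averaged 94.7 ± 8.85, 60.0 ± 33.3 and 99.4 ± 29.7 CPM in palmitic acid + carnitine, palmitic acid and control. Its counts in palmitic acid replicates 1, 2 and 3 were 169, 271 and 290, the first from the largest library. The log2 fold change of the RNA was -0.73 ± 0.40 for palmitic acid over control (edgeR, adjusted p = 0.320). For palmitic acid + carnitine over palmitic acid it was 0.67 ± 0.40 (adjusted p = 0.312). The medians over all noncoding genes opposite a coding gene were -0.80 and 0.90.

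Cpt1b, the muscle-type palmitoyltransferase and not among the 10 genes, had 4 counts in all (chromosome 15, 89300608 to 89310066), each in palmitic acid + carnitine replicate 2. In GENCODE M21, 81.4% of its exon bases are shared with Gm44502, a gene on the same strand that was not analysed here. How reads shared by both were counted is not given, and its level was not measurable in these counts.

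Slc25a20, the carnitine-acylcarnitine carrier of the inner membrane, had 8.63, 6.61 and 4.25 CPM with palmitic acid + carnitine. It had 13.5, 10.2 and 11.7 CPM with palmitic acid and 8.84, 7.72 and 6.91 CPM in control. As for Cpt1a, the palmitic acid libraries lay above all others and the other groups overlapped. The log2 fold change was 0.61 ± 0.38 for palmitic acid over control (edgeR, adjusted p = 0.372), -0.86 ± 0.39 for palmitic acid + carnitine over palmitic acid (adjusted p = 0.197) and -0.25 ± 0.41 for palmitic acid + carnitine over control (adjusted p = 1.00).

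Cpt2, the matrix enzyme that regenerates acyl-CoA, had 5.52, 2.36 and 1.70 CPM with palmitic acid + carnitine. It had 13.7, 8.31 and 3.73 CPM with palmitic acid and 6.39, 8.14 and 4.03 CPM in control. Its palmitic acid libraries spread widely and overlapped both other groups. The log2 fold change was 0.51 ± 0.58 for palmitic acid over control (edgeR, adjusted p = 0.635), and -0.02 without palmitic acid replicate 1. For palmitic acid + carnitine over palmitic acid it was -1.40 ± 0.62 (adjusted p = 0.188), and -0.88 without that library. For palmitic acid + carnitine over control it was -0.90 ± 0.64 (adjusted p = 1.00). Without palmitic acid + carnitine replicate 1 these values were -2.08 and -1.56.

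Crat, which moves short acyl groups between carnitine and CoA, had 36.6, 27.9 and 45.0 CPM with palmitic acid + carnitine. It had 58.2, 52.9 and 43.8 CPM with palmitic acid and 45.7, 23.1 and 49.8 CPM in control. All 3 groups overlapped. Its log2 fold changes were 0.38 ± 0.30 for palmitic acid over control (edgeR, adjusted p = 0.476), -0.50 ± 0.30 for palmitic acid + carnitine over palmitic acid (adjusted p = 0.311) and -0.12 ± 0.31 for palmitic acid + carnitine over control (adjusted p = 1.00). Its exons lie opposite Gm16323, a noncoding gene with 3713 counts against 1386 for Crat, and opposite Dolpp1, with 315. Together they cover 8.72% of its exon bases.

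Crot, the peroxisomal octanoyltransferase that hands shortened chains to carnitine, had 95 counts in all. It had 5, 2 and 2 counts with palmitic acid + carnitine, 29, 19 and 14 with palmitic acid and 2, 13 and 9 in control. It reached the count filter through palmitic acid: all 3 libraries of that group were above the floor of 3.24 CPM, against 0 of 3 with carnitine and 1 of 3 in control. A gene that passes through 1 group is high there by that filter, so its values are a description. Gm37153, with 26 counts, lies opposite 3.04% of its exon bases. The log2 fold change was -1.82 ± 0.79 for palmitic acid + carnitine over palmitic acid (edgeR, adjusted p = 0.185), 0.49 ± 0.72 for palmitic acid over control (adjusted p = 0.711) and -1.33 ± 0.81 for palmitic acid + carnitine over control (adjusted p = 1.00). Both values with control moved with single libraries, to 1.21 and -0.61 without control replicate 2 and to 0.10 and -1.72 without control replicate 1. The carnitine libraries lay below all palmitic acid libraries, and the control spread over both.

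Slc22a4, a plasma membrane transporter better known for ergothioneine than for carnitine, went the other way. It had 15.2, 16.1 and 14.0 CPM with palmitic acid + carnitine, 7.48, 15.5 and 8.60 CPM with palmitic acid and 21.6, 9.86 and 17.9 CPM in control. Palmitic acid replicates 1 and 3 were below all other libraries, and replicate 2 was among them. The log2 fold change was -0.66 ± 0.38 for palmitic acid over control (edgeR, adjusted p = 0.339), 0.53 ± 0.38 for palmitic acid + carnitine over palmitic acid (adjusted p = 0.388) and -0.12 ± 0.38 for palmitic acid + carnitine over control (adjusted p = 1.00). No annotated gene lies opposite its exons, nor opposite those of Cpt2, Slc25a20 and Aldh9a1.

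Slc22a5, the main carnitine importer, had 68 counts in all and was not measurable. It had 6, 7 and 13 counts with palmitic acid + carnitine, 16, 1 and 12 with palmitic acid and 0, 4 and 9 in control. The 0 in control replicate 1 allows up to 1.30 CPM before TMM scaling, from a limit of 3 counts that covers counting error only. The related Slc22a21 had 38 counts in all, 0 to 2 with palmitic acid + carnitine, between 6 and 14 with palmitic acid and between 0 and 8 in control.

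Aldh9a1, which oxidises an aldehyde on the way to carnitine, had 5.18, 13.7 and 7.22 CPM with palmitic acid + carnitine. It had 10.5, 7.20 and 15.2 CPM with palmitic acid and 4.42, 6.43 and 6.63 CPM in control. The palmitic acid libraries lay above those of the control and overlapped those with carnitine. Its log2 fold change was 0.89 ± 0.46 for palmitic acid over control (edgeR, adjusted p = 0.300), -0.35 ± 0.45 for palmitic acid + carnitine over palmitic acid (adjusted p = 0.655) and 0.54 ± 0.48 for palmitic acid + carnitine over control (adjusted p = 1.00). It was the single gene of the 8 with a positive value in the last of these.

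The fatty acid alone was set against untreated cells to see its effect on these genes. Of the 8 genes tested, 7 were above 0, as were 53.2% of all genes and 72.9% of coding genes without an opposite gene. The median log2 fold change of the 8 was 0.56, beside 0.06 over all 12548 genes and 0.27 over 6098 coding genes without an opposite gene. Crot is high in palmitic acid by the filter, so its place in the 7 and in the median is a description. The groups did not overlap for 4 of the 8, all higher with palmitic acid (Cpt1a, Cpt1c, Slc25a20 and Aldh9a1), beside 11.7% of all genes and 16.7% of those coding genes. None of the 8 was lower in this way, beside 10.9% of all genes and 3.56% of the coding genes. With edgeR 0 of the 8 passed, as did 0% of all genes in either direction, and the smallest adjusted p of any gene was 0.139. At an unadjusted p under 0.05 Cpt1a alone was higher, beside 5.67% of all genes, and 0 were lower, beside 13.9%. DESeq2 and limma on log2(FPKM + 1) called 0 of the 8.

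Adding carnitine to the fatty acid was set against the fatty acid alone. Here 1 of the 8 genes was above 0, as were 44.4% of all genes and 23.3% of coding genes without an opposite gene. The other 7 were below 0, and the 8 had a median log2 fold change of -1.12, beside -0.10 over all genes and -0.34 over coding genes without an opposite gene. The groups did not overlap for 4 genes, all lower with carnitine (Cpt1a, Cpt1c, Slc25a20 and Crot), beside 18.3% of all genes and 25.9% of those coding genes. Crot is high in palmitic acid by the filter, so its place in these 4, in the 7 below 0 and in the median is a description. None of the 8 was higher in this way, beside 20.0% of all genes and 3.35% of the coding genes. With edgeR 0 of the 8 passed, as did 0% of all genes in either direction. At an unadjusted p under 0.05, 5 genes were lower (Cpt1a, Cpt1c, Cpt2, Slc25a20 and Crot, the last having passed the filter through palmitic acid), beside 8.34% of all genes, and 0 were higher, beside 15.9%. DESeq2 called Cpt1a lower (-1.35 ± 0.44, adjusted p = 0.0310), beside 134 of 12548 genes called lower and 683 higher. It gave no adjusted p to 6 of the 8, Crat being the other tested gene with one. Cpt1c, among those 6, had a smaller unadjusted p than Cpt1a (DESeq2, 0.000978 against 0.00187). By limma on log2(FPKM + 1), 0 of the 8 were called. The comparison shares its palmitic acid libraries with the one before, so a library high in palmitic acid gives a positive value there and a negative one here.

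Cells given both agents were last set against untreated cells. In this comparison 1 of the 8 genes was above 0, as were 47.8% of all genes and 43.6% of coding genes without an opposite gene. The median was -0.22, beside -0.02 over all genes and -0.06 over coding genes without an opposite gene. All 8 overlapped between the groups, whereas 3.69% of all genes did not overlap and were higher and 4.84% were lower. Of the coding genes without an opposite gene 2.90% were higher and 6.25% lower in this way. With edgeR 0 passed, as did 0% of all genes in either direction, and 0 of the 8 had an unadjusted p under 0.05, beside 0.877% of all genes higher and 1.88% lower. DESeq2 and limma on log2(FPKM + 1) called 0 of the 8. Standard errors ran from 0.31 to 0.81, and a p that misses the threshold does not show that the groups are alike.

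**Figure D3:**
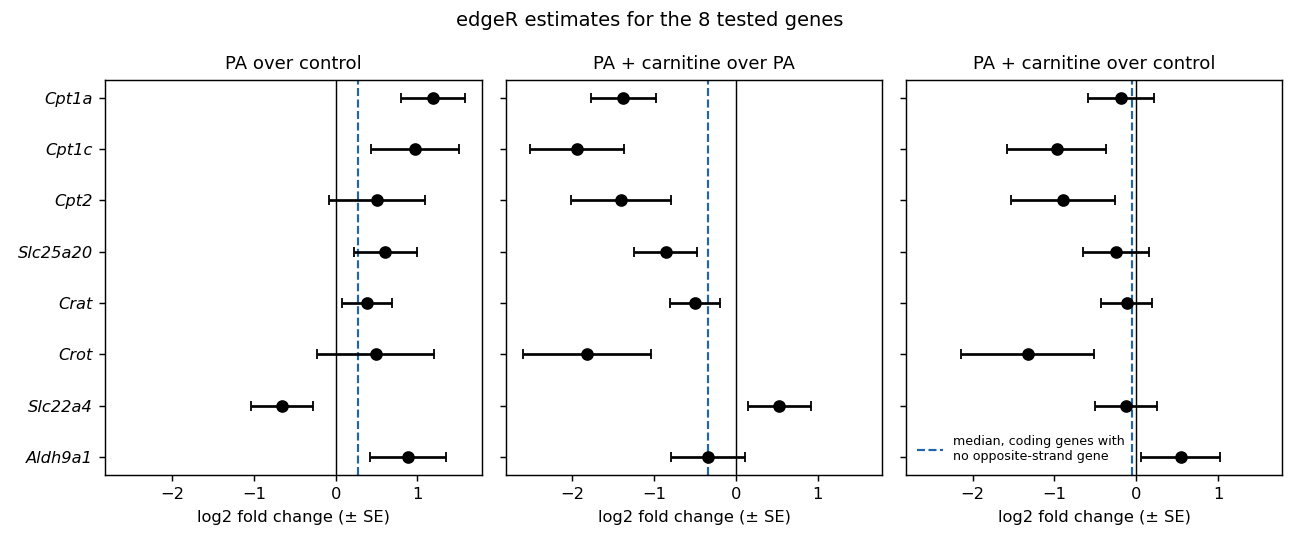
edgeR log2 fold change ± SE of the 8 tested genes in each comparison, with a dashed line at the median of coding genes without an opposite-strand gene (0.27, -0.34 and -0.06). Slc22a4 lies on the other side of 0 from the rest for palmitic acid over control and for palmitic acid + carnitine over palmitic acid.

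The division of counts between strands differed with the groups, and its part in these differences was not tested. Control replicate 3 had nearly the same ratio (1.18) as palmitic acid replicates 2 and 3 (1.21 and 1.22). Cpt1a had 33.5 and 49.3 CPM in the palmitic acid libraries and 24.2 CPM in that control library. Slc25a20 had 10.2 and 11.7 CPM against 6.91 CPM, and Cpt1c 11.4 and 8.31 CPM against 6.63 CPM. Aldh9a1 had 7.20 and 15.2 CPM against 6.63 CPM. For these 4 genes both palmitic acid libraries were above the control library. For Slc22a4 both were below it (15.5 and 8.60 CPM against 17.9 CPM), and for Cpt2 and Crat they lay on either side of it. Crot, high in palmitic acid by the filter, had 5.26 and 4.01 CPM in those palmitic acid libraries and 2.59 CPM in the control library. These libraries were picked after their values were seen, and 1 control library gives no spread, so the values are a description and say nothing of a cause.

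**Figure D4:**
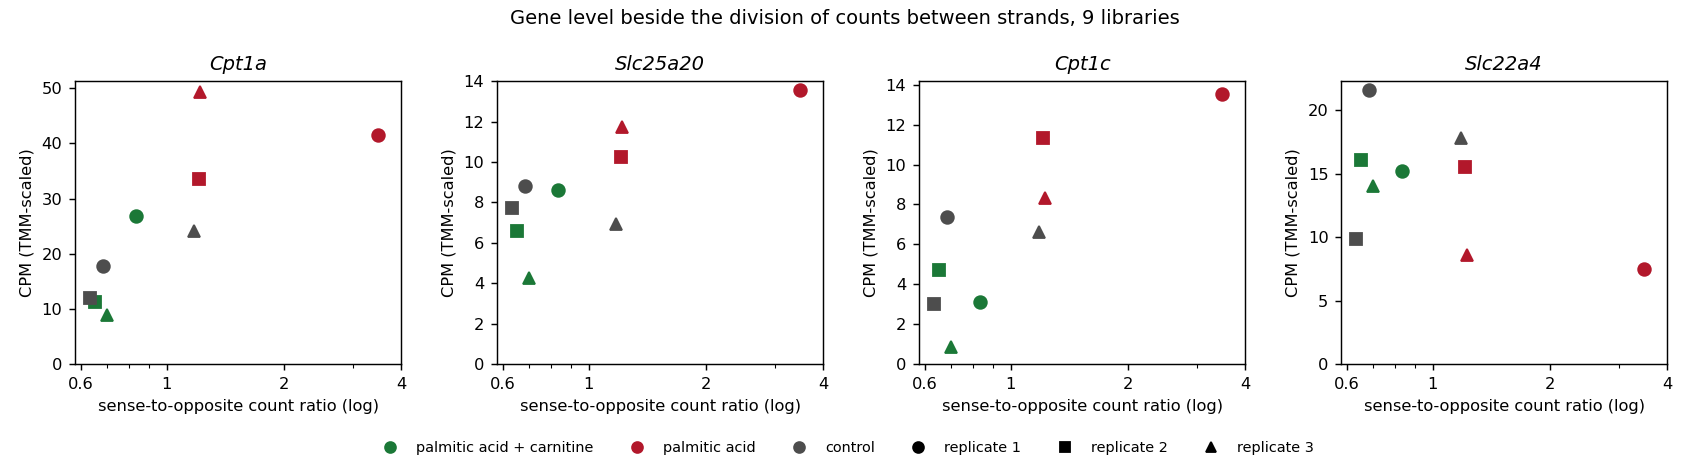
TMM-scaled CPM of 4 genes against the library's sense-to-opposite ratio (log scale), for 9 libraries. Palmitic acid replicates 2 and 3 and control replicate 3 stand at nearly the same ratio, and for Cpt1a, Slc25a20 and Cpt1c the control library is the lowest of the 3.

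Fits that take the strand division into account gave smaller values for Cpt1a in the same direction. With the ratio as a covariate its log2 fold change was 0.89 ± 0.40 for palmitic acid over control and -1.02 ± 0.43 for palmitic acid + carnitine over palmitic acid. Among genes without an opposite gene it was 0.95 ± 0.32 and -1.08 ± 0.33. Crat came to 0.05 and -0.11 with the ratio as a covariate. Cpt2 turned to -0.22 for palmitic acid over control and came to -0.65 for palmitic acid + carnitine over palmitic acid. Slc25a20 had 0.44 and -0.67, Cpt1c 0.60 and -1.51, Slc22a4 -0.40 and 0.23, and Crot had 0.76 and -2.10. Aldh9a1 had 0.98 and -0.47. In this fit 0 of the 8 genes passed. A further fit did not adjust for the ratio. It left out palmitic acid replicate 1 and control replicate 3, whose ratios stood apart within their groups. The control libraries kept had ratios of 0.685 and 0.633, and the palmitic acid libraries kept had 1.21 and 1.22. Group and ratio thus cannot be told apart in this fit. There Cpt1a was higher with palmitic acid (1.48 ± 0.42, edgeR, adjusted p = 0.0123) and lower with carnitine (-1.36 ± 0.36, adjusted p = 0.0103). Of 12548 genes, 734 were called higher and 1608 lower in the first comparison. In the second 1360 were called higher and 305 lower, and the fit of all libraries called 0 in both. Of the 8 genes 6 stayed above 0 in the first comparison.

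**Figure D5:**
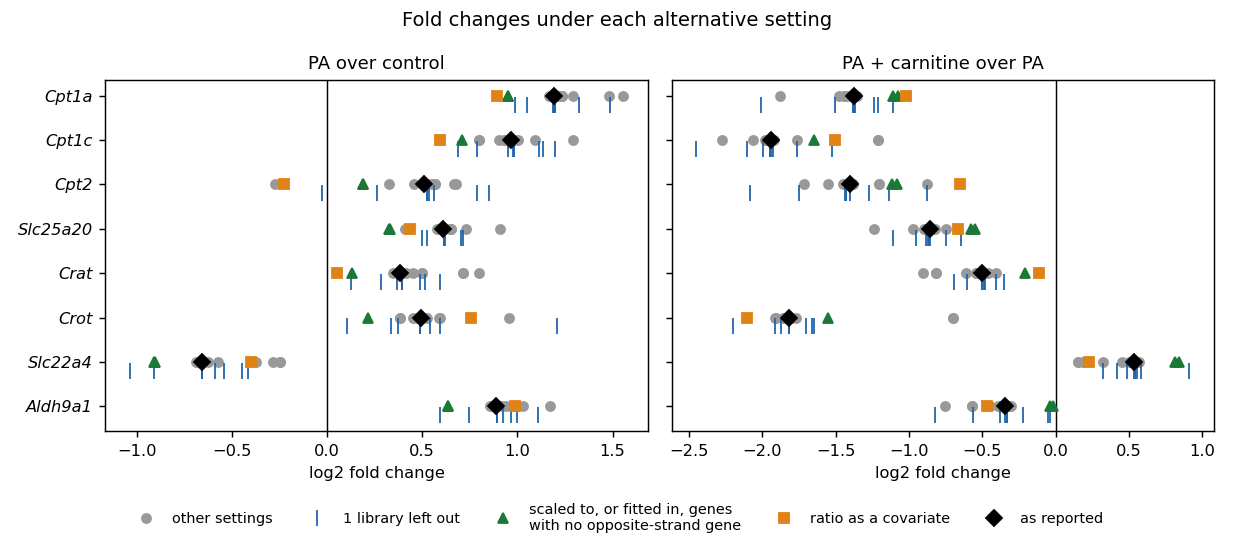
Log2 fold change of each gene as reported (black) and under each alternative, for palmitic acid over control and palmitic acid + carnitine over palmitic acid. Cpt1a stays between 0.89 and 1.55 and between -2.01 and -1.02, and Cpt2 crosses 0 for palmitic acid over control.

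Ratios of level per length within a library do not depend on how libraries are scaled to each other. Cpt1a over Crat was 0.519, 0.287 and 0.140 in palmitic acid + carnitine, 0.503, 0.447 and 0.793 in palmitic acid and 0.273, 0.366 and 0.342 in control. The palmitic acid libraries were above all controls, and palmitic acid + carnitine replicate 1 was among them. Cpt1a over Slc25a20 was 1.98, 1.09 and 1.33 in palmitic acid + carnitine, 1.94, 2.07 and 2.66 in palmitic acid and 1.27, 0.986 and 2.22 in control. These ranges overlapped. The ratio of Cpt1a to Cpt1c averaged 5.27 ± 3.12, 2.92 ± 1.24 and 2.46 ± 0.617 in palmitic acid + carnitine, palmitic acid and control, and that of Cpt1a to Cpt2 averaged 1.56 ± 0.0754, 2.12 ± 1.76 and 1.07 ± 0.729 (SD, n = 3 each). The ratios were chosen after the values were seen and were not tested.

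Likeness of pattern was measured as the root-mean-square difference between log2 CPM profiles over the 9 libraries, each centred on its own mean, where 0 is the same pattern. Among the 8 genes the closest pairs were Cpt1a with Slc25a20 (0.47), Crat with Slc25a20 (0.48) and Cpt2 with Slc25a20 (0.52). Among 10073 other named coding genes tested, the closest to Cpt1a were Zfr2 (0.23) and Nagpa (0.28), beside a spread of 0.80 for Cpt1a itself. For Slc25a20 they were Sec23a (0.15) and Gtpbp2 (0.15), beside a spread of 0.43, and for Crat Rex1bd (0.11) and Eif3m (0.12), beside 0.41. For Cpt1c they were Slc19a2 (0.26) and Eva1b (0.34), and for Cpt2 Ap3m2 (0.26) and Meak7 (0.34). For Crot they were Mmp9 (0.28) and Ralgapa1 (0.37), for Slc22a4 Fars2 (0.20) and Nasp (0.21), and for Aldh9a1 Btbd10 (0.24) and Tsg101 (0.24). These distances were not tested.

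Genes on either side of the shuttle were taken from lists of the pathway. Each list is to be read beside all genes, 53.2% of which were above 0 for palmitic acid over control. For palmitic acid + carnitine over palmitic acid 44.4% were. Of coding genes without an opposite gene 72.9% and 23.3% were above 0, with medians of 0.27 and -0.34. Among genes of fatty acid uptake and acyl-CoA synthesis, which supply the shuttle, 11 of 15 were tested and 8 were above 0 for palmitic acid over control (median log2 fold change 0.36). For palmitic acid + carnitine over palmitic acid 9 were below 0 (median -0.30), and edgeR called 0 in either. At an unadjusted p under 0.05, 1 gene was higher in the first and 2 were lower in the second, beside 5.67% of all genes higher and 8.34% lower. The most counted was Dbi, the acyl-CoA binding protein, at 0.36 ± 0.22 and -0.30 ± 0.22. Slc27a1, a fatty acid transporter, had 0.42 ± 0.25 and -0.65 ± 0.25. Acsl3, an acyl-CoA synthetase, had 0.38 ± 0.25 and -0.09 ± 0.24. Cd36, a fatty acid receptor, had 31 counts and was not tested.

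Among genes of the malonyl-CoA control of Cpt1, 10 of 11 were tested, 7 were above 0 for palmitic acid over control (median 0.29) and 6 below 0 for palmitic acid + carnitine over palmitic acid (median -0.14). Acaca, which makes malonyl-CoA, had log2 fold changes of 0.28 ± 0.31 and -0.39 ± 0.31. Stk11, the kinase upstream of AMPK, had 0.31 ± 0.24 and -0.28 ± 0.24. Acacb, the muscle and mitochondrial form of the carboxylase, had 53 counts and was not tested. edgeR called 0 genes of this list, and at an unadjusted p under 0.05 1 was higher in the first and 1 lower in the second comparison, beside the same 5.67% and 8.34% of all genes.

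Among nuclear receptors and their cofactors, 8 of 12 were tested, 5 were above 0 for palmitic acid over control (median 0.09) and 6 below 0 for palmitic acid + carnitine over palmitic acid (median -0.12). Ppard, the PPAR form typical of muscle, had 31.7, 35.7 and 33.6 CPM on average in palmitic acid + carnitine, palmitic acid and control, with log2 fold changes of 0.09 ± 0.30 and -0.19 ± 0.30. Ppara and Rxrg had 1 count each, and Pparg 64. Ncor1, a corepressor with a gene opposite its exons, had -0.82 ± 0.29 and 0.72 ± 0.29 (edgeR, adjusted p = 0.176 and 0.166). edgeR called 0 genes of this list, and at an unadjusted p under 0.05 Ncor1 alone was lower in the first and higher in the second comparison, beside 13.9% and 15.9% of all genes.

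Of 7 acyl-CoA thioesterases, which release free fatty acid from CoA, 5 were tested, 4 were above 0 for palmitic acid over control (median 0.33) and 4 below 0 for palmitic acid + carnitine over palmitic acid (median -0.20). Acot7 had 0.61 ± 0.35 and -1.13 ± 0.36, and Acot8, whose exons lie opposite another gene, -0.93 ± 0.34 and 1.16 ± 0.34. edgeR called 0 thioesterases, and at an unadjusted p under 0.05 Acot8 was lower in the first and higher in the second comparison (13.9% and 15.9% of all genes), where Acot7 was lower (8.34%). Of 8 further genes of carnitine handling only Slc25a29 and Slc25a45, mitochondrial carriers of the same family as Slc25a20, were tested. They had 0.67 ± 0.39 and 0.36 ± 0.50 for palmitic acid over control and -0.58 ± 0.39 and -0.96 ± 0.52 for palmitic acid + carnitine over palmitic acid, and neither passed.

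Summed levels of markers of other cell states are given beside these results. Markers of undifferentiated myoblasts and reserve cells summed to between 153 and 182 CPM with palmitic acid + carnitine, between 203 and 270 CPM with palmitic acid and between 157 and 196 CPM in control, with all 11 detected and Pax7 at 28 counts. Cycling cell markers, all 10 detected, summed to 181 to 257, 157 to 187 and 188 to 232 CPM. Much of that difference lay in Ccna2, whose exons lie opposite another gene, with means of 79.0, 34.7 and 83.3 CPM. Mcm2 went the other way, with 16.8, 29.3 and 15.9 CPM. Of the 9 cycling markers tested, 5 were above 0 and 4 below 0 for palmitic acid over control (median log2 fold change 0.06). Of 9 adipocyte markers 4 had a row, and their sum was 46.3 to 55.2, 52.1 to 63.9 and 44.7 to 65.2 CPM, most of it from Cebpa and Lipe. Of 8 osteoblast markers 6 had a row, with sums of 1604 to 1973, 2236 to 2884 and 1417 to 2307 CPM, most of it Col1a1, and Sp7 and Ibsp had 2 and 1 counts. Their part in the differences of the carnitine genes was not tested.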

How the data were processed

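RNA of myotubes was sequenced after a strand-specific kit, in 9 samples that the treatment label puts into 3 groups of 3. Per the file headers, the deposited table gives each gene's counts, not normalized, beside its FPKM, and every column of values was mapped to a sample by its title. FPKM was made by the authors from each sample's own total: the gene length implied by counts, totals and FPKM was the same in all samples to within a relative spread of 2.97e-14. Tools listed without roles in the submitters' processing notes are HTSeq 0.13.5, HISAT2 2.2.0, edgeR, Bowtie2 2.4.2 and Trim Galore 0.6.4. Of the builds listed there, Rnor_6.0, GRCm39 and GRCh38, the mouse one was used here. The strand setting of the counting and the handling of shared reads are not given in the sources used here, so genes with overlapping neighbours are uncertain. Genes without an opposite gene are not free of this doubt. With palmitic acid + carnitine the coding ones had fewer counts than noncoding genes opposite a coding gene (ratios of 0.653 to 0.831). Which strand's reads their counts hold was not tested.

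The 10 genes, the other lists and the alternatives were chosen with earlier results of these data known. All genes were tested in 1 fit of 9 samples with edgeR 4.0.16 (TMM, filterByExpr with a minimum count of 10 and total of 15, glmQLFit, glmQLFTest, two-sided). Benjamini-Hochberg adjustment ran over the 12548 genes tested, and genes under 0.05 were called. The SE is the log2 fold change divided by the square root of F. The fit was tested on simulated data. Alternatives used DESeq2 1.42.0, limma 3.58.1 on log2(FPKM + 1) and log2(FPKM + 0.1), and other filters, scalings and subsets. Opposite-strand genes came from GENCODE M21 (GRCm38), joined by gene ID for 22506 of 22831 genes: a coding gene has none when no gene on the other strand spans any of its exons, and a noncoding gene counts as opposite when exons overlap by at least 100 bases. All 10 genes were named whatever their values. From other lists genes were named by summed count, up to 4 a list, and Cd36, Acacb, Ppara, Ppard, Rxrg, Pparg, Cpt1b and Slc22a21 were named after their values were seen. The precision is set by 2.31 to 5.14 M counts per sample.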

Additional observations from a re-analysis of the deposited data

How the results depend on the processing

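Without a filter on low counts 22831 genes were tested. There edgeR called 1118 for palmitic acid over control (69 higher, 1049 lower), with 1 carnitine gene (Cpt1a, higher). It called 1366 for palmitic acid + carnitine over palmitic acid (1218 higher, 148 lower), with 2 carnitine genes (Cpt1a and Cpt1c, lower). For palmitic acid + carnitine over control it called 5, with 0 carnitine genes. Of 12548 genes DESeq2 called 474 in the first comparison (52 higher, 422 lower), with 0 carnitine genes. In the second it called 817 (683 higher, 134 lower), with 1 carnitine gene, lower. Leaving out palmitic acid replicate 1 and control replicate 3 gave 2342 (734 higher, 1608 lower), 1665 (1360 higher, 305 lower) and 7 of 12548 genes. Cpt1a was called higher in the first and lower in the second. The 6427 genes without an opposite gene gave 54 calls (3 higher, 51 lower) and 48 calls (46 higher, 2 lower), 0 of them carnitine genes. limma called 0 and 1 genes on log2(FPKM + 1), 1 and 3 on log2(FPKM + 0.1), and 5, 4 and 3 with no filter, 0 of them carnitine genes. Leaving out 1 library gave 0 to 758 genes in the first comparison, 758 without control replicate 3, 0 to 6 in the second, 6 without that library, and 0 in the third, with 0 carnitine genes throughout. Of 12548 genes in the fit as reported 0 were called in each comparison. In place of 0.06, the median log2 fold change of all genes for palmitic acid over control was 0.29 on log2(FPKM + 1), 0.42 on log2(FPKM + 0.1), 0.16 with upper-quartile factors and -0.21 with libraries scaled to coding genes without an opposite gene, a setting chosen after seeing the data. The direction changed for Cpt2 in palmitic acid over control (-0.22 with the ratio as a covariate, -0.02 without palmitic acid replicate 1, -0.27 without both libraries). For palmitic acid + carnitine over control it changed for Cpt1a (0.11 without control replicate 3, 0.09 without palmitic acid + carnitine replicate 3, 0.12 without both libraries named above), for Crat (0.01, 0.09 and 0.04 without control replicate 1, control replicate 3 and palmitic acid + carnitine replicate 2, 0.10 without both) and for Slc22a4 (0.13 without control replicate 1). Leaving out 1 library, these values ran from -0.02 to 0.85 for Cpt2 in palmitic acid over control and, in palmitic acid + carnitine over control, from -0.81 to 0.11 for Cpt1a, -0.37 to 0.09 for Crat and -0.37 to 0.13 for Slc22a4. The cause was not tested. With the replicate number as a block 0 genes were called in each comparison. Depth limits Slc22a5, Crot, Cpt2 and Cpt1c most, with 68, 95, 220 and 241 counts in all. Same-numbered libraries did not deviate together (correlation -0.39 to 0.26), and not every library correlated best with its own number.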
